A study of Homo sapiens with 4 samples.

Results

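The origins described here are replication-initiation regions of HCT116 cells that overlapped a RepID-binding peak and whose centre was still covered by a replication-initiation region when RepID was absent. They were selected on measured values, namely the positions of regions in the lists that the authors deposited. A region of the RepID wild-type list (WT origin) was taken when it lay on chromosomes 1 to 22, was narrower than 20000 bp, shared at least 1 bp with a RepID peak and had its midpoint inside a region of the RepID knockout list (KO region). Of the 78859 WT origins in the list, 77492 lay on these chromosomes and 76059 of those were under the width limit. RepID peaks overlapped 12103 of the 76059, and 3422 of the 12103 (28.3%, interval 27.5 to 29.1%) met the whole rule. A KO region lay at the centre of 45.9% of all 76059 WT origins and of 49.2% of the 63956 that no RepID peak overlapped (RepID-free). The rule used both the RepID overlap and the covered centre, so these shares are background and nothing is read from their difference. These 3422 origins are called central-in-KO origins below. Among the other RepID-overlapped origins, 3158 had a KO region that missed the centre (displaced) and 5523 had none (absent).

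Nascent strands were sequenced from asynchronous cultures of HCT116 cells, which derive from a human colorectal carcinoma, before any change to RepID (WT) and after CRISPR-Cas9 knockout of RepID with a guide against an exon of the gene, after which stable clones were selected with puromycin (KO). How many clones lie behind the KO library is not given in the sources used here, and region lists cannot check the loss of the protein. The series also holds a library labelled as a genomic control of HCT116, whose own data were not analysed here. Whether both lists were called against it could not be checked. RepID binding was measured by ChIP-Seq with an antibody against FLAG in U2OS, an osteosarcoma cell line, that stably expressed RepID with a FLAG tag. RepID peaks therefore come from another cell line, and from a tagged protein, than the WT and KO regions. The WT list held 78859 regions, the KO list 159667 and the RepID list 24222, and every share of covered centres below rests on this longer KO list. The paper's own comparison of WT and KO initiation counted as many WT regions but far fewer KO regions. The shares below therefore cannot be set directly against the paper's result for origins bound by RepID. Each condition has 1 library, so no difference between WT and KO could be set against a spread between replicates, no test between conditions was made, and the intervals below (95%, exact binomial for shares, Newcombe for differences) cover counting error only. The lists hold regions and scores but no totals of reads. Sequencing depth is therefore unknown here, and a region missing from a list may lie below its detection limit. Scores were compared within a list only. The score of a nascent-strand region is a whole number whose meaning is not stated, and that of a RepID peak is the MACS score, which starts at 100 in this list. Positions are on hg19, the build in the submitters' processing notes, counted from 1. No gene annotation on that build was used here.

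Replication origins are licensed in G1 phase, when the origin recognition complex and its partners load the MCM helicase onto chromatin, and only some of the licensed sites start replication in a given S phase. Short RNA-primed nascent strands resist λ exonuclease, which is why their enrichment marks places where replication began. RepID, also known as PHIP or DCAF14, is a chromatin-binding protein of the family of substrate receptors for the CUL4-DDB1 ubiquitin ligase. The study asked whether the origins it binds depend on it for initiation.

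The WT midpoint of the central-in-KO origins lay a median of 1000 bp from the nearer edge of its KO region, and 1800 of the 3422 origins (52.6%) had it at least 1 kb inside. At the boundary of the rule, 340 central-in-KO origins had their midpoint at most 100 bp inside a KO edge, with a median top RepID score of 283, and 336 other RepID-overlapped origins had it at most 100 bp outside, with a median of 301. The widest origins that the width limit let in spanned 19800 bp, for example chr11:47428601-47448400 (3 RepID peaks, KO score 212), and the narrowest that it left out spanned 20000 bp, for example chr11:69298401-69318400 (3 RepID peaks, KO score 168).

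RepID peaks, measured in U2OS, scored lower at the central-in-KO origins than at the other RepID-overlapped ones. Where an origin held several peaks, the highest-scoring one (top RepID peak) was used. The score of the top RepID peak ran from 100.05 to 3100 over the 3422 origins, with quartiles at 144 and 412 and a median of 229 (interval 221 to 239). The median was 312 (300 to 324) at displaced origins and 267 (261 to 275) at absent ones, so the intervals of the 3 medians did not meet. The 12103 RepID-overlapped origins were also ordered by top RepID score into 5 groups of nearly equal size (quintiles). The highest quintile held 16.4% of the central-in-KO origins, 24.98% of the displaced and 19.4% of the absent ones. The lowest held 24.1% of the central-in-KO and 19.2% of the absent origins. The 3 distributions overlapped over nearly their whole range, and the difference is one of shares and medians. The central-in-KO origins included 276 with a top RepID score under 110, next to the lowest score in the list.

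**Figure D1:**
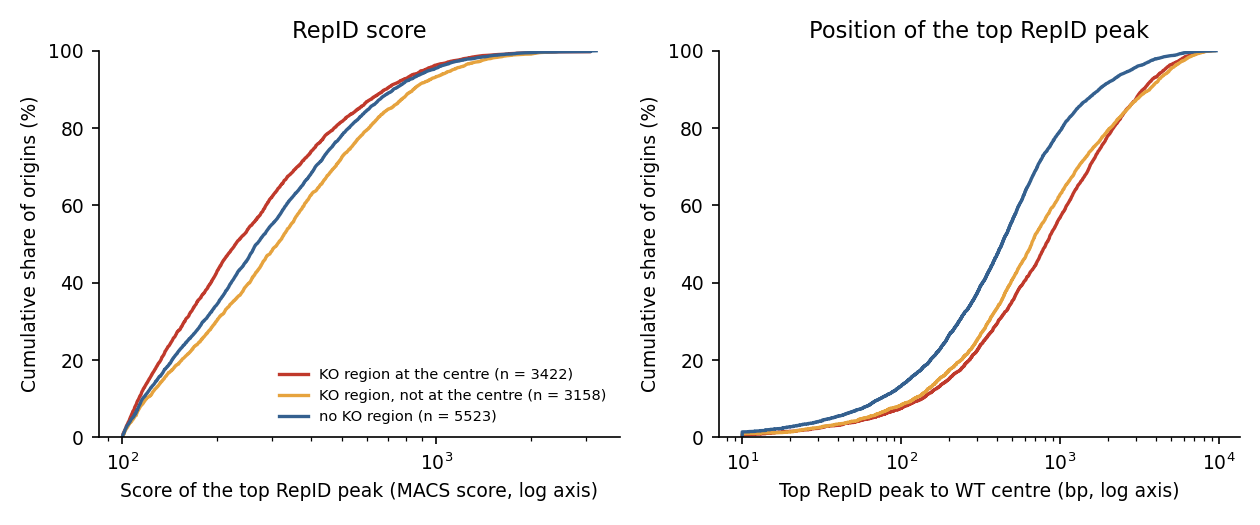
Cumulative share of RepID-overlapped WT origins (%) against the MACS score of the top RepID peak (left) and against the distance in bp from that peak's midpoint to the WT midpoint (right, distances under 10 bp drawn at 10), both on log axes, for the 3422 central-in-KO, 3158 displaced and 5523 absent origins. The central-in-KO curve lies to the left for score, with a median of 229, and has the largest median distance, 815 bp.

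The rule used the presence of a RepID peak but not its score, so origins could also be compared along the score. Over the quintiles, the share of origins with a KO region at the centre fell from the lowest to the highest RepID scores. It was 34.1% (32.2 to 36.0%) for scores from 100.03 to 142 and 33.2% (31.3 to 35.1%) in the next quintile. The share was 26.9% (25.2 to 28.8%) in the middle quintile, 23.9% (22.2 to 25.7%) in the next and 23.2% (21.5 to 24.9%) for scores from 535.66 upwards. The highest quintile was lower than the lowest by a difference of -10.8 percentage points (-13.4 to -8.31). The share with any KO overlap was 56.2%, 55.1%, 52.0%, 52.6% and 55.8% from the lowest to the highest quintile, where the median WT width was 3800 bp against 3000 bp in the lowest. Within bands of width, any overlap was less frequent in the highest than in the lowest quintile by a difference of -10.1 percentage points (-15.9 to -4.11) under 2 kb and -4.70 (-8.92 to -0.461) from 2 to under 5 kb. The differences of -0.120 (-5.55 to 5.37) from 5 to under 10 kb and -5.27 (-11.0 to 0.700) from 10 to under 20 kb have intervals that include 0.

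Coverage of the surroundings gives a scale for these shares. KO regions covered on average 25.4% of the sequence 10 to 50 kb to both sides of origins in the lowest RepID quintile and 25.2% in the highest. The share of covered centres was thus 1.34 times the flanking coverage in the lowest quintile, 1.37 times in the next, 1.17, 1.0501 and, in the highest, 0.921 times. At RepID-free origins, given as background, it was 1.69 times.

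Width and strength of the WT origin changed this picture. In origins under 2 kb, the share fell from 26.7% in the lowest to 12.2% in the highest RepID quintile, a difference of -14.5 percentage points (-19.2 to -9.42), and in those of 2 to under 5 kb from 33.1% to 17.4%, a difference of -15.8 (-19.4 to -12.1). From 5 to under 10 kb the difference was -8.80 (-14.5 to -3.01). From 10 to under 20 kb it was -4.94 with an interval that includes 0 (-12.5 to 2.62), so no decline with RepID score was detectable in the widest origins. Within quartiles of the WT score, the highest minus the lowest RepID quintile ran from -18.6 percentage points in the weakest WT origins to -5.62 (-10.9 to -0.422) in the strongest.

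**Figure D2:**
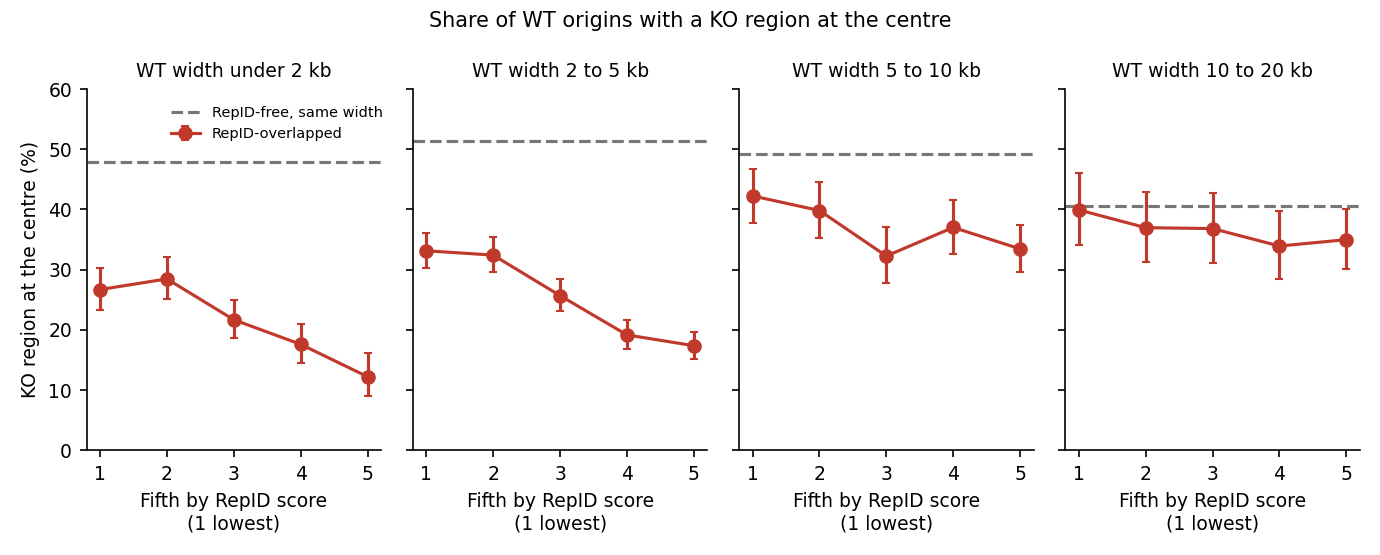
Share of WT origins (%) whose centre a KO region covers, by quintile of top RepID score (1 lowest, 5 highest) in 4 bands of WT width, with exact binomial 95% intervals. Dashed lines give RepID-free origins of the same width as background. The share falls from 33.1 to 17.4% between 2 and 5 kb, and stays between 33.9 and 39.9% above 10 kb.

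Most central-in-KO origins carried a single RepID peak. The 3422 origins held 4876 overlaps with RepID peaks. Exactly 1 peak was found at 2422 of them (70.8%, 69.2 to 72.3%), 303 had 3 or more, 95 had 4 or more, and the highest number was 7. At the other RepID-overlapped origins 36.8% had 2 or more peaks, against 29.2% here, a difference of -7.54 percentage points (-9.35 to -5.69). The difference was larger against displaced origins (-12.9) than against absent ones (-4.49). Counted the other way, a KO region lay at the centre of 30.6% of the origins with 1 RepID peak and of 22.8% of those with 2. Origins with 3, 4 and 5 peaks had shares of 27.1%, 26.0% and 31.3%, but they were few (768, 223 and 83). In bands of width the pattern was plainer. Under 2 kb, 24.3% of the origins with 1 peak and 12.4% of those with 2 or more had a covered centre, and from 2 to under 5 kb 29.9% and 16.95%. From 10 to under 20 kb the values were 38.0% and 35.1%, whose difference of -2.94 has an interval that includes 0 (-7.86 to 1.97).

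RepID peaks lay farther from the midpoint at the central-in-KO origins. The midpoint of the top RepID peak was a median of 815 bp (777 to 857) from the WT midpoint, against 662 bp at displaced and 431 bp at absent origins. A RepID peak covered the WT midpoint itself at 1027 of the 3422 origins (30.0%, 28.5 to 31.6%), at 40.8% of the displaced and at 49.7% of the absent ones. Absent origins were narrower, at a median of 2400 bp against 4000 bp, which limits how far a peak can lie from the midpoint. Within bands of width the direction was the same. The share of covered centres was lower where a RepID peak sat on the midpoint than where it sat elsewhere, by -4.20 percentage points (-7.45 to -1.03) under 2 kb and by -13.3 from 2 to under 5 kb. The corresponding differences were -14.6 from 5 to under 10 kb and -11.5 (-17.7 to -4.58) from 10 to under 20 kb. In origins of 5 to under 20 kb, the KO share rose with the distance of the top RepID peak. It was 27.8% (22.4 to 33.6%) for a peak within 250 bp of the midpoint and 23.1% at 250 to 500 bp. It then reached 31.2% at 500 to 1000 bp, 38.6% at 1 to 2 kb and 41.6% (38.8 to 44.4%) at 2 to 4 kb. Beyond 4 kb it was 37.9%.

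Whether the KO region also covered the RepID peak was not set by the rule where that peak lay off the midpoint. Over all 3422 origins, KO regions covered the top RepID peak completely at 1892 (55.3%) and not at all at 779 (22.8%). Of the 2395 origins with no RepID peak on the midpoint, the top peak was fully covered at 1136 (47.4%) and uncovered at 742 (31.0%, 29.1 to 32.9%). In these 742 origins the KO region covered the WT midpoint but not the top RepID peak.

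The KO region leaned away from RepID. In 1475 central-in-KO origins the midpoint of the top RepID peak was at least 1 kb from the WT midpoint, so the origin could be oriented by it. A WT region extends equally far to both sides of its own midpoint, so the sides hold equal lengths of it. Whether they differ in other ways than the RepID peak was not tested. From the WT midpoint the KO region reached a median of 1600 bp towards RepID and 2500 bp away from it. The midpoint of the KO region lay on the side opposite to RepID in 903 origins (61.2%, 58.7 to 63.7%), on the RepID side in 534 (36.2%) and at the WT midpoint in 38. At 2 kb from the WT midpoint, 48.9% (46.3 to 51.5%) of the positions towards RepID were covered by a KO region and 64.9% (62.5 to 67.4%) of those away from it. Only the far side was covered in 501 origins and only the near side in 264. The sides approached each other with distance, with 33.4% and 39.3% at 5 kb and 33.2% and 35.9% at 10 kb. At displaced origins, whose KO regions avoid the midpoint by definition, the values at 2 kb were 28.4% towards and 42.5% away.

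This lean was present in each quintile of RepID score and each band of width examined, and on 21 of the 22 autosomes the far side held more KO midpoints. The share with the KO midpoint opposite to RepID was 56.8% (51.3 to 62.2%) in the lowest RepID quintile and 69.5% (63.9 to 74.7%) in the highest. By width it was 60% from 2 to under 5 kb, 65.6% from 5 to under 10 kb and 55.9% (51.4 to 60.4%) from 10 to under 20 kb. The share of these origins whose top RepID peak was entirely uncovered did not follow the score, at 42.9% in the lowest and 39.0% in the highest quintile.

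**Figure D3:**
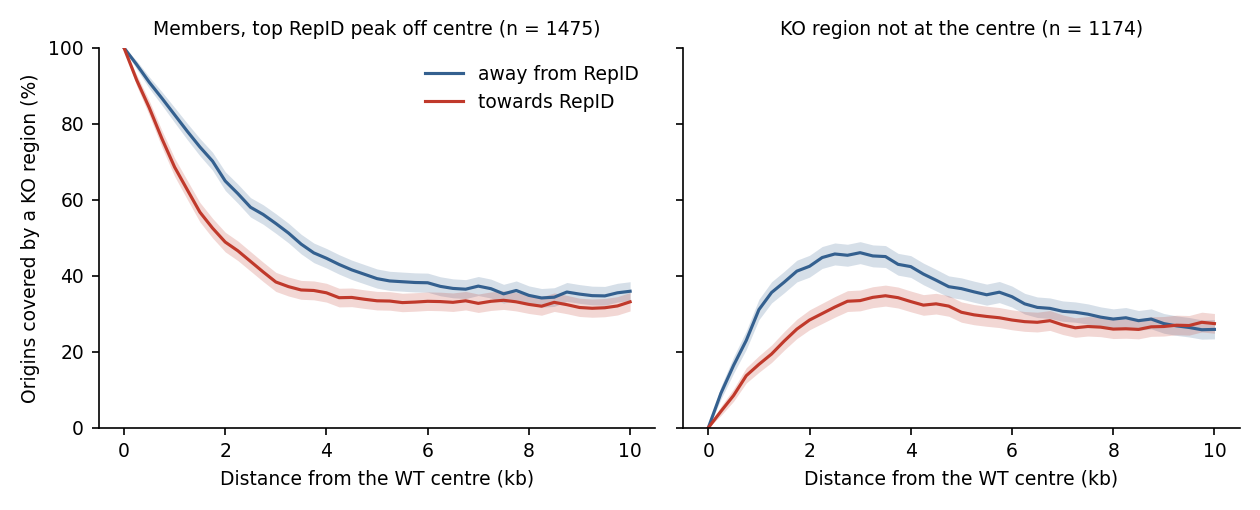
Share of origins (%) covered by a KO region at increasing distance (kb) from the WT midpoint, towards the top RepID peak (red) and away from it (blue), for 1475 central-in-KO origins (left) and 1174 displaced origins (right) whose top RepID peak lay at least 1 kb off. Bands are exact binomial 95% intervals, and the value at distance 0 follows from how the groups were chosen. At 2 kb the curves stand at 48.9 and 64.9% on the left and at 28.4 and 42.5% on the right.

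The KO regions at the centre of these origins were wider and scored higher than the KO list as a whole, as the choice by a covered point favours wide regions. They ran from 200 to 80800 bp with a median of 4200 bp, and their scores from 40 to 30591 with a median of 183 (179 to 189), against 3000 bp and 130 in the autosomal KO list. The comparison that shares this choice is with KO regions at the centre of RepID-free origins, whose medians were 4600 bp and a score of 201 (199 to 203). In each band of WT width the central-in-KO origins had the lower median KO score, though in the widest band the intervals overlapped. The medians were 159 (151 to 167) and 185 under 2 kb, 173 and 206 from 2 to under 5 kb, 205 and 239 from 5 to under 10 kb, and 225 (208 to 239) and 252 (237 to 272) from 10 to under 20 kb. When origins were instead grouped by flanking KO coverage, the median scores were 148 and 159 in the least covered tertile and 166 and 176 in the middle one. They were close in the most covered tertile, at 237 and 236. Among the central-in-KO origins the KO score did not follow the RepID score, with medians of 191 in the lowest and 195 in the highest RepID quintile and a Spearman rho of 0.0019 across 3422 origins. The WT and KO scores of these origins had a rho of 0.15. Neighbouring origins are not independent, so both are descriptions only.

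The fit between WT and KO regions varied. In 1101 central-in-KO origins (32.2%, 30.6 to 33.8%) the whole WT region lay inside the KO region. In 1146 (33.5%) the KO region lay inside the WT region, and in 1175 (34.3%) the regions overlapped on one side. At RepID-free origins with a covered centre, 58.0% lay wholly inside the KO region and 13.3% held it. RepID-free origins were narrower, and within widths of 2 to under 5 kb the shares wholly inside were 37.7% and 51.4%, and from 5 to under 10 kb 11.1% and 21.5%. KO regions covered a median of 77.8% (76.6 to 79.5%) of the length of the central-in-KO origins. A single KO region overlapped 2689 of them (78.6%), and 2 or more overlapped 733 (21.4%), against 6.96% of the RepID-free ones. This last comparison was not made within bands of width, and a wider WT region can overlap more KO regions. The start and end of the WT and KO regions were identical in 17. Since wide KO regions can hold several WT midpoints, the 3422 origins corresponded to 3387 different KO regions.

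On the WT side, the central-in-KO origins had a median width of 4000 bp, between the displaced (4400 bp) and absent origins (2400 bp), and a median WT score of 349, against 467 and 208. RepID-free origins with a covered centre had medians of 2200 bp in width and 99 in WT score. A gap of at most 1 kb separated 778 of the central-in-KO origins (22.7%) from the nearest other WT region, and the median gap was 3000 bp.

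Named examples were taken from the extremes of the lists. How uniquely reads map at these regions was not tested, so their scores are given as listed values only. A MACS score of exactly 3100 was shared by 32 RepID peaks of the list, and 9 central-in-KO origins reached it, so the strongest peaks could not be ranked further and were ordered by WT score. First came chr1:148927401-148933400, with a WT score of 3435 and a RepID peak of 4818 bp over its midpoint. Its KO region, from 148927401 to 148934400, had a score of 484 and covered the whole RepID peak. On chromosome 2, the origin chr2:91843001-91848800 (WT score 2836) held a RepID peak of 4420 bp and a KO region from 91842801 to 91849000 with a score of 349. A second origin on chromosome 2, chr2:91634401-91637600 (WT score 745), had a KO region with a score of 405. The remaining pair was chr9:66454601-66460200 (WT score 2325, KO score 4859) and chr8:134576001-134586000 (WT score 2136, KO score 302). In the latter the KO region at the centre ended at 134582000, and together with a second one covered 73.7% of the RepID peak. Of the 9 origins at this score, 4 lay within 2 Mb of the longest stretch of their chromosome with no region in any list, against 121 of all 3422 (3.54%).

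The highest KO scores belonged to other origins than the highest RepID scores. The origin chr18:106001-112600 was extreme in both nascent-strand lists, with a WT score of 15970 and a KO score of 30591, while its single RepID peak, 428 bp wide with a score of 677, lay at the edge, 3032 bp from the midpoint. On chromosome 21, chr21:9694001-9705400 (WT score 4464, 3 RepID peaks) and chr21:9662201-9665400 (WT score 265, RepID score 117) shared a KO region of 44000 bp with a score of 9551. Very wide KO regions also held chr4:190518201-190524400 (80800 bp, score 8290) and chr1:143466401-143469600 (74800 bp, score 8191), whose RepID scores were 166 and 356. In 4 of these 5 origins the KO region was several times wider than the WT origin. Of the 50 central-in-KO origins with the highest KO scores, 12 lay within 2 Mb of the longest empty stretch of their chromosome.

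In origins with the most RepID peaks, KO regions left much or all of the strongest peak uncovered. The origin chr1:16463801-16483600, 19800 bp wide, held 7 RepID peaks, the strongest with a score of 1661 and 7281 bp from the midpoint. The KO region at its midpoint was short, from 16473401 to 16475800, with a score of 117, and KO regions covered 45.1% of the strongest peak. At chr11:64635801-64653800 the KO region ended at 64645000 and the strongest of the 7 RepID peaks (score 469) began at 64645120. At chr16:50625601-50639000 the KO region ended at 50634800 and the strongest RepID peak (score 445) began at 50634860, so that no KO region covered either peak. KO regions covered 33.4% of the strongest peak at chr2:47292001-47308200 (RepID score 1629) and 16.5% at chr9:137436401-137449600 (RepID score 858).

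The 17 origins in which WT and KO regions had the same ends had a median top RepID score of 250, and 2, 5, 4, 1 and 5 of them fell in the RepID quintiles from lowest to highest. The 5 with the highest WT scores are described here. At chr1:91852601-91853200, an origin of 600 bp, the WT score was 2158, the KO score 1847 and the RepID score 1395. All these scores are high for so short a region, and read mapping there was not tested. At chr20:48925001-48931000, with 3 RepID peaks and a top score of 677, the WT score was 620 and the KO score 239. The other examples were chr10:126479201-126482400 (RepID score 179), chr1:158149601-158154000 (RepID score 708) and chr2:66659801-66662600 (RepID score 1117), with KO scores of 135, 217 and 135.

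**Figure D4:**
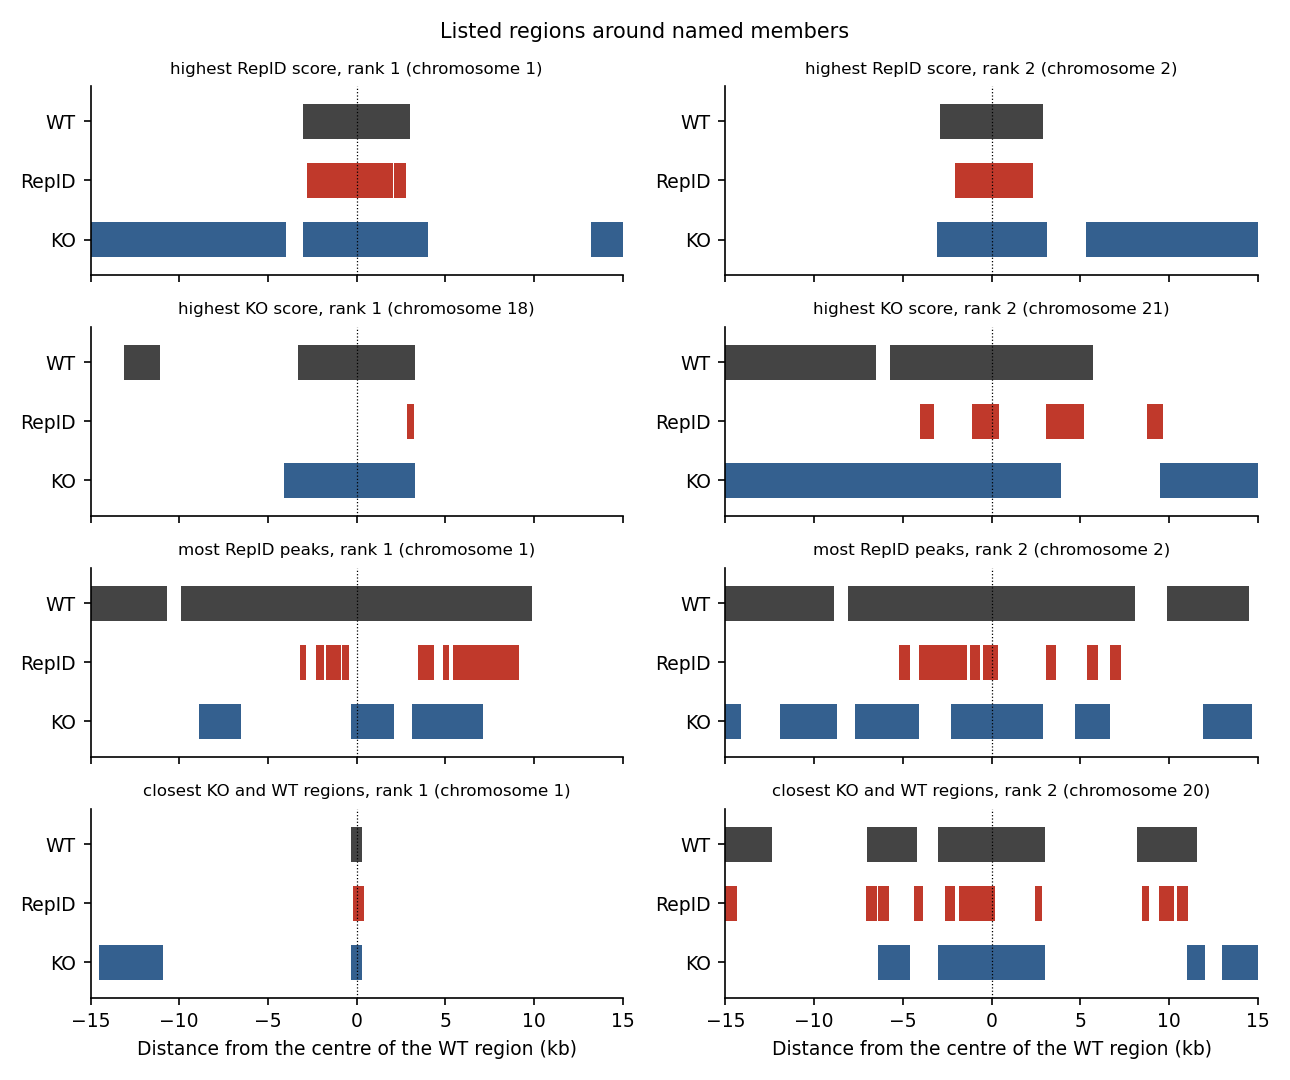
Listed regions within 15 kb of the WT midpoint (dotted line, distance in kb) for 8 named central-in-KO origins, with WT regions in grey, RepID peaks in red and KO regions in blue, to scale. At the origin with 7 RepID peaks on chromosome 1 the KO region at the midpoint spans 2400 bp, and at the origin on chromosome 20 the WT and KO regions have the same ends.

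The central-in-KO origins were unevenly spread over the chromosomes. Their share of the RepID-overlapped origins was highest on chromosomes 17 (325 of 745, 43.6%, 40.0 to 47.3%), 8 (216 of 496, 43.5%, 39.1 to 48.0%) and 10 (204 of 607, 33.6%, 29.9 to 37.5%), and lowest on chromosomes 13 (35 of 213, 16.4%, 11.7 to 22.1%) and 18 (34 of 205, 16.6%). Chromosomes 8, 10 and 17 together held 745 of the 3422 (21.8%) and 15.3% of all RepID-overlapped origins. The KO list was denser there for other origins too. KO regions covered 33.5% of chromosome 17, 29.8% of chromosome 8 and 24.98% of chromosome 10, against 12.5% of chromosome 13 and 17.6% of chromosome 18. RepID-free origins had covered centres in 66.8% of cases on chromosome 8, 46.4% on chromosome 13 and 49.2% on chromosome 18. Across the 22 autosomes the shares of RepID-overlapped and RepID-free origins had a Spearman rho of 0.78, and the former had the same rho with the covered length of the chromosome. The shares come from the same KO list, so this is a description. On 19 of the 22 origins above the chromosome's median RepID score were central-in-KO less often than those below it.

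**Figure D5:**
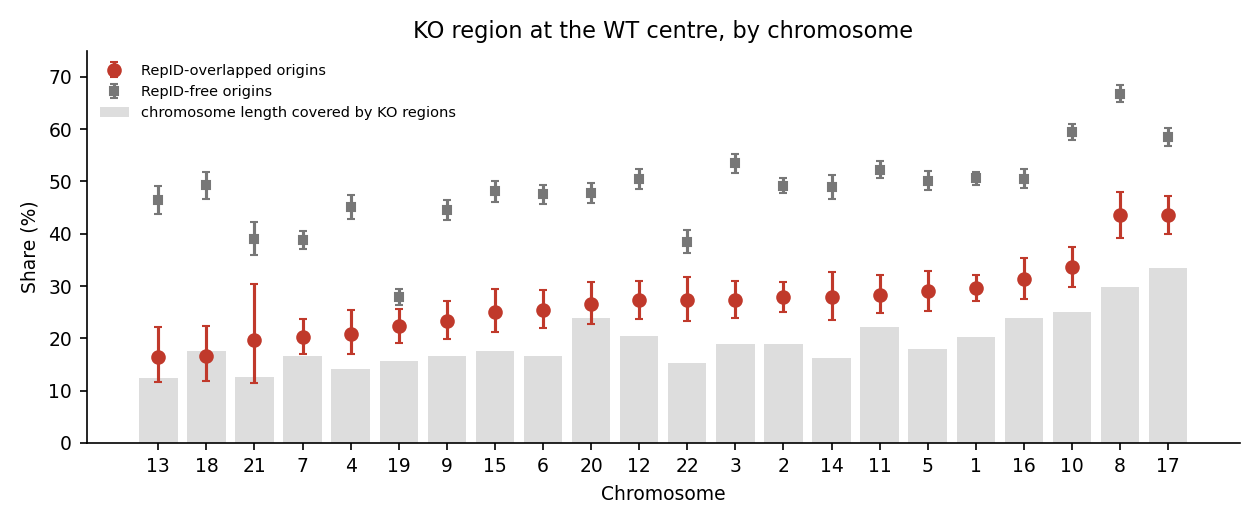
Share of WT origins (%) whose centre a KO region covers, on each autosome for RepID-overlapped (circles) and RepID-free origins (squares) with exact binomial 95% intervals, and the share of the chromosome length that KO regions cover (bars). The chromosomes are ordered by the first share, from 16.4% on chromosome 13 to 43.6% on chromosome 17.

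High shares were regional, and some of the windows with high shares lay on other chromosomes. In windows of 20 Mb with at least 20 RepID-overlapped origins, 10 of 143 had a share over 50%. The windows from 120 to 140 Mb (55 of 75 origins) and from 140 to 160 Mb (62 of 93) of chromosome 8 had the highest shares, 73.3% and 66.7%. They were followed by 100 to 120 Mb of chromosome 10 (69 of 110), 80 to 100 Mb of chromosome 16 (70 of 114) and 60 to 80 Mb of chromosome 17 (138 of 225). The median KO score in these 5 windows ran from 210 to 261, against 130 in the autosomal list, and RepID-free origins had covered centres in 71.1 to 90.2% of cases. By contrast, the window from 40 to 60 Mb of chromosome 8 held 4 such origins among 45 (8.89%). RepID-free origins in that window had covered centres in 43.0% of cases. The part of this density of the KO list in the shares was not tested. DNA copy number in these windows was not examined either, as the data of the genomic control library were not analysed. The 10 windows, chosen for their shares, contained 16.8% of the central-in-KO origins and 7.99% of all RepID-overlapped origins. Outside them, 25.6% of the RepID-overlapped origins were central-in-KO, and the highest minus the lowest RepID quintile was -11.7 percentage points (-14.2 to -9.10).

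Density of the KO list around an origin went with its class. KO regions covered a median of 27.0% of the flanks from 10 to 50 kb at central-in-KO origins, 23.3% at displaced and 17.3% at absent ones. The flanks of central-in-KO origins were also richer in WT regions, with medians of 27.1%, 24.8% and 13.8%. Within tertiles of flanking KO coverage, the share of central-in-KO origins rose from 18.5% to 25.8% and 40.4%. The highest minus the lowest RepID quintile was negative in each tertile, at -5.91 (-9.78 to -2.04), -10.2 and -14.7 (-19.2 to -10.1). Neighbouring central-in-KO origins on a chromosome lay a median of 228 kb apart, with quartiles at 69.1 and 706 kb, and 100 of 3400 neighbouring pairs were less than 10 kb apart.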

How the data were processed

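The authors deposited 1 list of enriched regions per library, each with a score and without read counts. According to the methods, RepID peaks were called with MACS against U2OS genomic input. The score of the nascent-strand lists is not defined, all their regions lie on a grid of 200 bp, and the calling programme for HCT116 is not given in the sources used here (the submitters' processing notes name MACS, SICER and hg19 without roles). Overlaps, covered lengths and distances were computed in Python 3.11.15 (SciPy 1.17.1, pandas 2.3.3, numpy 2.4.6), drawn with matplotlib 3.10.9, and tested on simulated data against bedtools 2.31.1. Intervals are 95%: Clopper-Pearson for shares, Newcombe for differences, order statistics for medians. No test across conditions was made, since each has 1 library. The origins and comparisons were chosen with earlier results of these data known. By a rule set with that knowledge, the 5 origins with the highest RepID score, the highest KO score, the most RepID peaks and the closest WT and KO regions were named (ties by WT score, or by RepID score for the number of peaks), with those at the width limit. The windows and chromosomes left out, the distance of 1 kb for orientation and the empty stretches were chosen after values were seen. Gene annotation, sequence content and printed sequence need a genome on hg19 and were not analysed here.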

Additional observations from a re-analysis of the deposited data

How the results depend on the processing

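No paired analysis was possible because each condition has 1 library. The 10 main values were recomputed under 11 alternatives, 2 of them chosen after the data were examined (without chromosomes 8, 10 and 17, and with a midpoint on a KO end counted). Of 110 values, 70 stayed within the counting interval (for the number of origins, within 1.5 times), 40 moved and 0 reversed. What caused these moves was not tested. Differences are in percentage points, and the one from RepID-free origins is background. The number of origins, 3422, became 2533 with KO scores at or above the median, 2507 with the shortened KO list, 2562 with 500 bp covered on both sides, and between 2677 and 3707 under the other alternatives but the one named below. With KO regions at or above the median KO score, the share of RepID-overlapped origins with a KO region at the centre was 20.9%, its difference from RepID-free origins -17.5, the median KO width 5000 bp, the median KO score 227 and the share of origins wholly inside the KO region 36.6%. With the KO list shortened by score to the length of the WT list, these were 20.7%, -17.5, 5000 bp, 228 and 36.9%. When 500 bp on both sides of the centre had to be covered, they were 21.2%, -19.7, 4600 bp, 205 and 42.4%, and the median top RepID score was 217. With RepID scores at or above the median, 1983 origins remained, the share was 25.3%, the difference from RepID-free origins -23.0, the median top RepID score 372, the highest minus the lowest quintile -4.52, the difference in the share with 2 or more peaks -2.84 and the share wholly inside 28.6%. With WT scores at or above the median, the difference from RepID-free origins was -17.2, the median top RepID score 252, the median KO score 191 and the share wholly inside 23.7%. Under 10000 bp of WT width, the share was 27.1%, the difference from RepID-free origins -22.4, the difference in 2 or more peaks -9.58, the median KO score 178 and the share wholly inside 37.6%, and with no width limit the last was 29.8%. Merging regions less than 1 kb apart gave a median KO width of 4800 bp, a median KO score of 206 and 35.9% wholly inside. Without chromosomes 8, 10 and 17, the share was 26.1%, the median KO width 3800 bp, the median KO score 170 and the share wholly inside 30.4%. The difference in RepID peaks over the centre stayed within its interval under all 11 alternatives. The unknown depth limits each statement on an origin that lacks a KO region.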

Other observations

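Outside the autosomes the pattern was another. The KO list, with 159667 regions in all against 78859 in the WT list, held 190 on chromosome X against 1304, with 297 RepID peaks there. Of the 164 RepID-overlapped origins under the width limit on chromosomes X and Y, 7 (4.27%, exact binomial 95% interval 1.73 to 8.596%) had a KO region at the centre, against 28.3% on the autosomes. These 7 are not among the 3422 origins described above. The share for RepID-free origins on chromosomes X and Y was not computed, so nothing about RepID is read from the low share there.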
